A study of Mus musculus with 8 samples.

Results

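Layer 6b (L6b) neurons are the deepest excitatory neurons of the cortex, and they were examined here in mouse primary visual cortex (V1) at postnatal day 21. Their nuclei were those that the deposited annotation calls L6b, and they numbered 1159 of 102330 nuclei in all and of 69372 excitatory neuron nuclei. Single-nucleus RNA-seq was run on 8 libraries, 2 per group, each pair made of 1 male and 1 female. All animals carried floxed alleles of the glucocorticoid receptor gene Nr3c1 (GRfl/fl) and received an AAV2/5 vector at birth. In GR-Con the vector expressed ΔCre, an inactive form, and in GR-KO it expressed Cre, in both cases from GfaABC1D and together with membrane-bound EGFP (EGFP-CAAX, with the 4x6T and WPRE elements). GfaABC1D is an astrocyte promoter, so that the intended site of receptor loss was the astrocyte and not the L6b neuron. Animals of each genotype were either normally reared (NR) or dark-reared (DR).

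L6b neurons lie just above the white matter and include descendants of the subplate, the earliest-born neurons of the cortex. They send axons to other cortical layers and to higher-order thalamus, and they respond to orexin, the hypothalamic wakefulness peptide. Visual experience shapes the gene expression of cortical neurons in the first postnatal weeks, and astrocytes sense circulating glucocorticoids through the glucocorticoid receptor. The design asks how L6b neurons differ between dark and normal rearing and how they differ between GR-KO and GR-Con.

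The label L6b was borne out by its marker genes, which were not tested because the clusters were built from the same genes. Levels are CPM (counts scaled to the library total) of the unique molecular identifiers (UMIs) summed over the L6b nuclei of a library, and means are over 8 libraries. Cplx3, a complexin that regulates vesicle fusion, reached 25.9 CPM ± 7.40 (SD, n = 8), against 9.79 in Lamp5 interneurons, the next highest type, and 1.28 in L5IT, the highest other excitatory type. Ccn2, a secreted matrix protein, was at 74.1 CPM in L6b and 71.1 in vascular leptomeningeal cells, but at no more than 5.13 in another excitatory type. Nxph4, which encodes a neurexophilin, was at 8.79 CPM, Nr4a2, a nuclear receptor, at 81.4, and Moxd1, a monooxygenase-like gene, at 102 CPM, against 80.1 in Sst and 45.1 in Pvalb interneurons. Tmem163, Lpar1 and Svil were highest outside the excitatory neurons, in oligodendrocytes or vascular leptomeningeal cells, although L6b was the highest excitatory type for each.

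**Figure D1:**
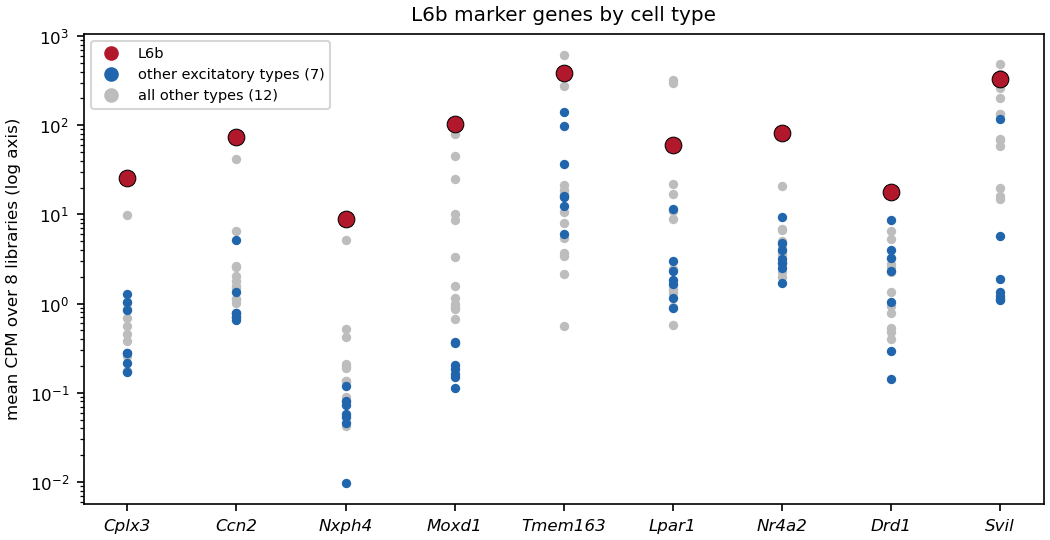
Mean CPM over 8 libraries (log axis) of 9 L6b marker genes in L6b (red), in the 7 other excitatory types (blue) and in 12 other cell types (grey). Each gene was higher in L6b than in any other excitatory type, and Tmem163, Lpar1 and Svil were higher still in a non-neuronal type.

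Cplx3 was detected in 45.3% of L6b nuclei and Ccn2 in 69.7%, at a median of 25050 UMIs per nucleus. In oligodendrocytes, a type that should lack both, the shares were 0.941% and 1.81% at a median of 8864 UMIs. After thinning each nucleus to 5000 UMIs the shares were 14.8% and 30.1% in L6b, and 0.588% and 0.979% in oligodendrocytes. Both genes were found in 402 of the 1159 nuclei, Cplx3 alone in 123, Ccn2 alone in 406 and neither in 228. After thinning 693 of 1156 nuclei had neither.

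The genes with the largest ratio of mean CPM in L6b to that in the next type were Pappa2, a protease that cleaves a binding protein of insulin-like growth factor, and the long noncoding RNA gene Gm41414. Pappa2 was 17.5 times higher than in the next type and Gm41414 15.2 times. Pappa2 was at 10.8, 30.3, 22.9 and 8.48 CPM in the NR libraries and at 33.7, 45.5, 49.7 and 32.3 in the DR libraries, which did not overlap, but its log2 difference of 1.12 did not pass the test (adjusted p = 0.076 by edgeR). Myocd, a transcriptional coactivator, Adgrg6, an adhesion G protein-coupled receptor, and Kynu followed further down. Kynu encodes kynureninase, an enzyme of tryptophan breakdown, and its level was 23.2 CPM in L6b against at most 0.111 in another excitatory type. Vascular leptomeningeal cells had 7.86 CPM and microglia 3.93. Across 13672 genes the mean log2 profile of L6b was most like that of layer 6 corticothalamic (L6CT) neurons (Pearson r = 0.962), followed by L6IT (0.948), L5IT (0.942) and L5NP (0.936), values given as descriptions because the profiles come from the same libraries. L6IT markers did not separate the types here, since Osr1, Oprk1 and Sulf1 summed to 247 to 304 CPM in L6b and 68.4 in L6IT.

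The libraries differed in what they gave for L6b. The number of L6b nuclei was 128 and 127 in NR GR-Con, 237 and 58 in NR GR-KO, 199 and 185 in DR GR-Con and 122 and 103 in DR GR-KO, with the male library first. Summed L6b UMIs ranged from 2123272 to 7625723 per library. The NR GR-KO female library held the fewest nuclei and lay apart from the other libraries in a scaling plot of L6b profiles (first coordinate -1.17 against -0.45 to 0.56 in the other 7). Layer 5 pyramidal tract neurons were 0.953% of its excitatory nuclei, against 4.46% to 5.33% in the other libraries. The NR GR-KO male library held the most nuclei, and 42.2% of them carried at least 3 UMIs of the marker genes of a non-neuronal or inhibitory type, against 7.54% to 25.9% in the other libraries. Such nuclei could not be told apart from L6b nuclei with foreign RNA. The cut of 3 UMIs was not adjusted for depth. Median UMIs per L6b nucleus were 30139 in the NR GR-KO male, 37398 in the NR GR-KO female and 20124 to 26570 in the other libraries. The summed markers of non-neuronal and inhibitory types were low in L6b, whereas L6CT markers summed to 270 to 485 CPM against 1391 in L6CT. Oligodendrocyte markers summed to 28.5 to 71.1 CPM in L6b against 15242 in oligodendrocytes, astrocyte markers to 4.13 to 10.9 against 3283, and inhibitory neuron markers to 1.97 to 7.06 against 551. Of the L6b nuclei, 26 had a barcode sequence that also occurs in another library, though none in L6b of another library.

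The check of the targeted gene was indirect. Cre transcript was at 0 CPM in astrocytes of the 4 GR-Con libraries and at 4.14 to 10.4 in those of GR-KO. Nr3c1 itself was at 207 to 263 CPM in GR-Con astrocytes and at 268 to 284 in GR-KO, so the counts showed no loss, but they were taken over the whole gene and do not isolate the floxed part. In L6b neurons Nr3c1 was at 192 CPM ± 11.6 (SD, n = 4) in GR-Con and 210 ± 39.5 (SD, n = 4) in GR-KO, a difference within the spread of the libraries (log2 difference 0.14 ± 0.14 SE, adjusted p = 1.0 by edgeR). EGFP was found in 3 and Cre in 10 of 1159 L6b nuclei. All nuclei with Cre were in GR-KO libraries, 7 of them among the 237 L6b nuclei of the NR GR-KO male. Per the study's methods, nuclei for this assay were sorted as GFP-negative, which limits this check of the vector.

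L6b nuclei made up 1.37% and 1.39% of excitatory neuron nuclei in NR GR-Con, 2.78% and 0.937% in NR GR-KO, 2.14% and 1.76% in DR GR-Con and 1.68% and 1.14% in DR GR-KO. The Wilson 95% intervals of the lowest and the highest library, 0.726% to 1.21% and 2.45% to 3.15%, did not meet, and both were NR GR-KO libraries. Dark-reared libraries averaged 1.68% ± 0.413 (SD, n = 4) and normal-reared ones 1.62% ± 0.800 (SD, n = 4), a difference of 0.0618 percentage points (exact permutation test, two-sided, p = 0.914, smallest possible p = 0.0286). GR-KO averaged 1.63% ± 0.824 and GR-Con 1.66% ± 0.364, a difference of -0.0305 points (exact permutation test, p = 0.971). The intervals cover counting error only.

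**Figure D2:**
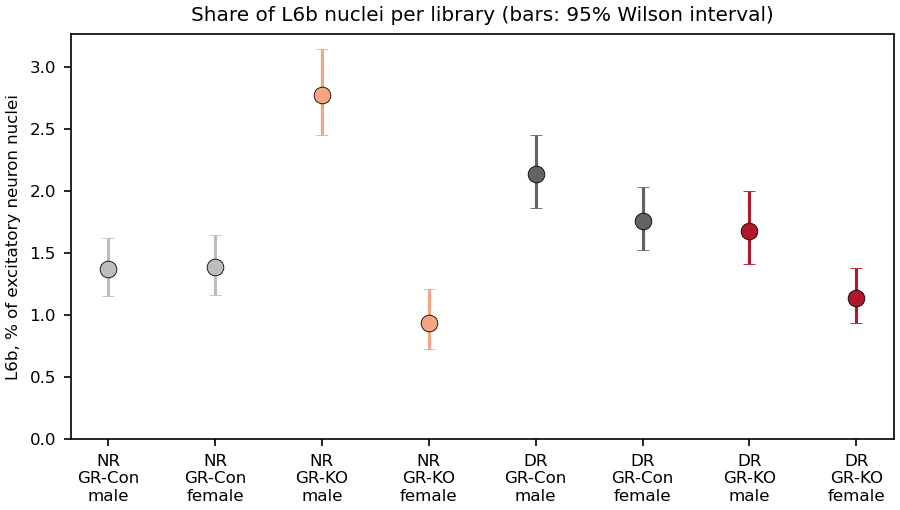
Share of L6b nuclei among excitatory neuron nuclei (%) in each of the 8 libraries, with 95% Wilson intervals as bars. The 2 NR GR-KO libraries were the highest, at 2.78%, and the lowest, at 0.937%.

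Dark rearing was compared over both genotypes first, with 4 libraries against 4. Lower in DR were Lgi2, a secreted ligand of the epilepsy-linked LGI family, Rad51ap2, Ptchd4 and Osbpl3, an oxysterol-binding protein. Higher in DR were Dner, a Notch-like transmembrane protein, the glycosyltransferases Galnt10 and St6gal1, Ssbp3, a cofactor of LIM-domain transcription factors, and Hcrtr2, the orexin-2 receptor. Of 11283 genes tested, 29 were higher and 24 lower in DR at an adjusted p below 0.05 (edgeR likelihood ratio test), 0.47% of those tested, 0.257% in the upward and 0.213% in the downward direction. The libraries of both groups did not overlap for 45 of the 53 genes, and over all genes tested this held for 610, or 5.41%. The edgeR quasi-likelihood test called 0 genes, with 1026 at an unadjusted p below 0.05, whereas DESeq2 called 29. The number of calls rested on single libraries. It was 14 without the DR GR-KO male library, 25 without the NR GR-Con male, 27 without the DR GR-KO female, 80 without the NR GR-Con female and 193 without the NR GR-KO male.

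Osbpl3 was at 989 and 1017 CPM in NR GR-Con, at 958 and 611 in NR GR-KO, at 335 and 300 in DR GR-Con and at 679 and 395 in DR GR-KO. The 2 DR GR-Con libraries were the lowest of all 8, and the DR and NR groups overlapped, as 679 in a DR GR-KO library lay above 611 in an NR GR-KO library. The log2 difference was -1.11 ± 0.24 (SE, adjusted p = 0.0058 by edgeR). Osbpl3 was listed because earlier results of these data had shown it, so its call is not independent of them.

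Lgi2 was at 43.3 and 65.8 CPM in NR GR-Con, at 29.2 and 68.8 in NR GR-KO, at 26.0 and 17.8 in DR GR-Con and at 21.4 and 21.01 in DR GR-KO. All 4 DR libraries were below all 4 NR libraries. Its log2 difference of -1.26 ± 0.27 (SE, adjusted p = 0.0029) was called in 8 of 8 fits that left out 1 library.

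Rad51ap2 was at 72.1, 69.3, 47.3 and 79.6 CPM in the 4 NR libraries and at 35.0, 35.1, 26.7 and 34.7 in the 4 DR libraries. The lowest NR value, in the NR GR-KO male, was above every DR value. Its log2 difference of -1.02 ± 0.18 (SE, adjusted p = 0.00011) had the lowest adjusted p of the comparison and was called in 8 of 8 fits that left out 1 library. Ptchd4, which holds a patched domain, fell by 0.94 on the log2 scale (adjusted p = 0.0055), from 326 to 481 CPM in NR to 171 to 296 in DR.

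The promoters of 3 genes lowered in DR are shown with the sequence before their start, Lgi2 and Rad51ap2 because their calls held whichever library was left out and Ywhah, picked after the search, because it held the only match to the cAMP response element. They come from RefSeq on build GRCm38.p6, 250 bases upstream of the start on the gene's own strand, and capitals mark a match to the cAMP response element TGACGTCA. Ywhah lies on the plus strand, Lgi2 on the minus strand and Rad51ap2 on the plus strand.
Ywhah (chr5:33018566-33018815): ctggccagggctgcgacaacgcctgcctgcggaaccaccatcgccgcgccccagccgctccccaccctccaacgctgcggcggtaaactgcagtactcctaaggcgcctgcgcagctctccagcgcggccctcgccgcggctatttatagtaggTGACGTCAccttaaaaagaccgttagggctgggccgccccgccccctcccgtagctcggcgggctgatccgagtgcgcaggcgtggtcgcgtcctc
Lgi2 (chr5:52566307-52566556): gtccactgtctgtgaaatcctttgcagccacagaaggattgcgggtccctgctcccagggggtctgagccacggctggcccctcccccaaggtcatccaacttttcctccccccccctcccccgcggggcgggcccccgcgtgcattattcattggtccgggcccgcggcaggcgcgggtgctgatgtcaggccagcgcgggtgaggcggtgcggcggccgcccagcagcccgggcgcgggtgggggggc
Rad51ap2 (chr12:11455805-11456054): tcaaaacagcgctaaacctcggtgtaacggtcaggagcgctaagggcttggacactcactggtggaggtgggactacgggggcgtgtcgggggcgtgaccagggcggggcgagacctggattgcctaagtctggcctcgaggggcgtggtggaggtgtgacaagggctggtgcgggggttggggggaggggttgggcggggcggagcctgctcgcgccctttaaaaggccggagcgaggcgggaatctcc
The Ywhah window held 1 such element, starting 96 bases before the gene's start, and the Lgi2 and Rad51ap2 windows held none. In all, 9 windows of 7 genes named as lower in DR were searched, of which 1 held the cAMP response element and none an AP-1 motif (TGANTCA) or an E-box (CACGTG). The 12 windows of 7 genes named as higher in DR held 1 AP-1 motif, in St6gal1, and none of the others. Both strands of each motif were searched, and these palindromic motifs read the same on both. Of 32851 promoter windows of 300 bases, 1.79% held the cAMP response element, 7.81% the AP-1 motif and 7.15% the E-box.

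Among ion channel and synaptic genes, Scn1a, the sodium channel Nav1.1, was at 214 to 248 CPM in NR and at 151 to 186 in DR, a log2 difference of -0.52 (adjusted p = 0.0079). Nrgn, the calmodulin-binding protein neurogranin, fell by 0.69 on the log2 scale (adjusted p = 0.017), a call made in 3 of 8 fits that left out 1 library. Lin7a, a PDZ-domain scaffold, fell by 0.53 (adjusted p = 0.0079), and Sytl2, a synaptotagmin-like protein, by 0.70 (adjusted p = 0.031), called in 2 of 8 such fits, against 5 of 8 for Lin7a and for Scn1a. Ywhah, a 14-3-3 protein, was at 50.1 to 65.5 CPM in NR and at 31.7 to 44.0 in DR and fell by 0.53 (adjusted p = 0.042), and its call was lost with 6 of the 8 libraries left out in turn.

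Going up, Dner was at 31.8, 24.7, 33.4 and 15.1 CPM in NR and at 50.0, 37.5, 67.1 and 71.5 in DR, with no overlap. Its log2 difference of 1.04 ± 0.23 (SE, adjusted p = 0.0059) was called in 6 of 8 fits that left out 1 library. Tmem150c, a transmembrane protein linked to mechanosensing, was at 69.7, 62.8, 84.2 and 64.5 CPM in NR and at 98.8, 96.9, 121 and 120 in DR, and its log2 difference was 0.61 ± 0.11 (SE, adjusted p = 0.00048). Ssbp3 was at 137 to 159 CPM in NR and at 186 to 244 in DR, a log2 difference of 0.57 (adjusted p = 0.0011). Galnt10 was at 111 to 220 in NR and at 220 to 307 in DR, groups that came close but did not overlap. Its call was made in 4 of 8 fits that left out 1 library. St6gal1 was at 32.1 to 35.3 in NR and at 41.5 to 60.6 in DR. Sh3gl3, an endophilin of synaptic vesicle recycling, rose by 0.71 on the log2 scale (adjusted p = 0.0058).

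Hcrtr2, the receptor through which orexin acts on L6b neurons, was at 35.2, 27.7, 49.7 and 35.3 CPM in NR and at 56.1, 42.5, 65.8 and 84.4 in DR. The DR libraries were higher on average, and the groups overlapped because the NR GR-KO male value lay above the DR GR-Con female value. The log2 difference was 0.72 ± 0.16 (SE, adjusted p = 0.0079), and it was 1.16 (adjusted p = 0.00028) once nuclei with markers of other types were left out. Its RNA was concentrated in few nuclei, as 99 of 1159 nuclei held at least 5 UMIs each and together 80.0% of the 1512 Hcrtr2 UMIs. Of the L6b nuclei 22.7% had an Hcrtr2 UMI, against 0.720% of oligodendrocytes, and 12.1% against 0.490% after thinning to 5000 UMIs. The share was 23.9% in L6CT and 49.5% in L5NP, and the mean level of 49.6 CPM in L6b compared with 42.9 in L6CT, 71.3 in L5NP, 82.2 in Vip and 243 in Lamp5 interneurons. The count of nuclei with at least 5 UMIs was 6, 6, 23 and 6 in the NR libraries and 19, 13, 11 and 15 in the DR libraries, from unequal numbers of nuclei and depths.

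**Figure D3:**
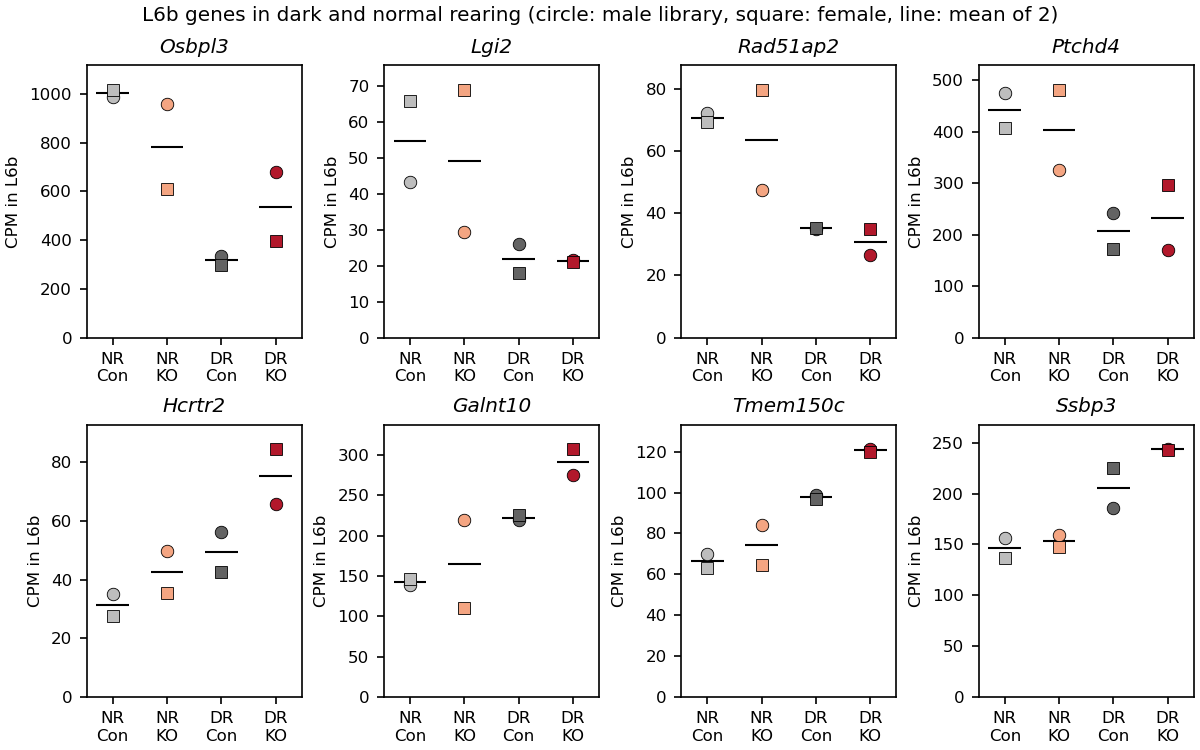
CPM in L6b of 8 genes in each library, grouped by rearing and genotype (Con, GR-Con, KO, GR-KO), with males as circles, females as squares and the mean of 2 libraries as a line. Lgi2, Rad51ap2, Ptchd4, Galnt10, Tmem150c and Ssbp3 had all DR libraries on 1 side of all NR libraries, and Osbpl3 and Hcrtr2 did not.

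The gene lists below were chosen with earlier results of these data known, and few of their members were called with darkness. Over all genes 0.47% were called, and a single call in a list of these sizes already lies above that share. A list of 5 genes taken from earlier darkness results of these data, Osbpl3 among them, is left out here. Of 26 tested neuromodulator receptors of 47 listed, Hcrtr2 was higher and none lower, and the median log2 difference was -0.04. Of 22 tested glutamate receptor genes, Grin2d, an NMDA receptor subunit, was higher, at 5.18 to 7.79 CPM in NR and 9.83 to 18.6 in DR (median of the list 0.12). Of 11 tested GABA-A receptor subunits, Gabra4 was lower, at 86.5 to 116 CPM in NR and 52.5 to 90.7 in DR (list median -0.13). Of 35 tested axon guidance genes, Sema3a, a secreted repellent, was lower, with a log2 difference of -0.53 (adjusted p = 0.027), and the median was 0.07. None of 15 tested circadian clock genes, 8 immediate early transcription factors, 12 activity-regulated effectors, 7 glucocorticoid receptor targets, 6 deep-layer transcription factors and 9 L6b markers was called, and 11 of the 15 clock genes had negative differences (median -0.18). The median over all genes tested was 0.00. The L6CT marker Syt6 was higher in DR, at 13.2 to 34.5 CPM against 6.03 to 9.48. Syt6 was also called higher in DR within L6CT, though not within L6IT. Its difference of effects between L6b and L6CT was not called. Summed oligodendrocyte markers were at 38.1 to 71.1 CPM in NR and 28.5 to 61.0 in DR, and L6CT markers at 270 to 393 and at 287 to 485. The part of such RNA in other differences was not tested.

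The comparison was repeated within each genotype, with 2 libraries against 2. In GR-Con, 26 genes were higher (0.219%) and 18 lower (0.151%) in DR, 0.37% of 11895, and in GR-KO 19 were higher (0.178%) and 12 lower (0.112%), 0.29% of 10676. The quasi-likelihood test called 2 genes in GR-Con and 0 in GR-KO, with 816 at an unadjusted p below 0.05, and DESeq2 called 28 and 1. No gene was called in both genotypes with the same sign, although 31 of the 42 genes called in GR-Con that were also tested in GR-KO had the same sign there. Leaving out 1 library here left a group with a single library of 1 sex. Sex and group could not be told apart in those fits, so their counts of calls are not given. A joint fit over all 8 libraries called 7 genes for GR-Con in place of 44, and of 19 genes refitted there 15 lost their call.

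In GR-Con the gene with the smallest adjusted p was Osbpl3, lower in DR with a log2 difference of -1.66 ± 0.17 (SE, adjusted p = 2.8e-19), and the quasi-likelihood test called it too (adjusted p = 0.0037). Osbpl3 also kept its call in the joint fit (adjusted p = 3.2e-06), as did Tshz2. Rad51ap2, Lgi2, Ptchd4 and Sytl2 were lower in GR-Con as well, and in the joint fit, where their adjusted p was 0.096 to 0.36, they were not called. Hunk, a kinase related to AMP-activated kinase, fell by 1.09 on the log2 scale, and the laminin chain Lama4 by 1.06. Of 35 axon guidance genes tested in GR-Con, 2 were higher in DR and none lower, 14 had negative differences and the median was 0.05, where 0.219% of all genes were higher. Slit1, a secreted guidance cue, was at 29.5 and 29.9 CPM in NR and at 60.6 and 76.8 in DR, a log2 difference of 1.20 ± 0.20 (SE, adjusted p = 4.5e-06). Nrp2, a neuropilin, was at 35.2 and 35.8 in NR and at 61.6 and 85.0 in DR, with a log2 difference of 1.04. In the joint fit neither Slit1 (adjusted p = 0.25) nor Nrp2 (0.54) was called. Cntnap4, a cell adhesion protein of the neurexin family, was at 61.3 and 66.4 in NR and at 200 and 144 in DR. In NR GR-KO the male and female libraries held 256 and 77.2 CPM of Cntnap4, so that rearing was not separated in GR-KO. Adarb2, which resembles an RNA-editing enzyme, and Tshz2, a marker of L5NP neurons, were also called. Tshz2 rested on few nuclei, as 15 of 1159 L6b nuclei held 79.2% of its UMIs. L5NP markers summed to 9.42 to 68.8 CPM in the NR libraries and to 43.7 to 99.2 in the DR libraries, and their part in this result was not tested.

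In GR-KO, Dner was higher in DR, at 33.4 and 15.1 CPM in NR and at 67.1 and 71.5 in DR, a log2 difference of 1.44 ± 0.32 (SE, adjusted p = 0.0056). St5, also known as a regulator of RAB GTPases, Epha10, an ephrin receptor, Zhx2, a transcription repressor, and the integrin Itga8 were higher. Rspo2, a secreted enhancer of Wnt signalling, was lower, at 84.7 and 60.8 CPM in NR and at 34.7 and 33.9 in DR, a log2 difference of -1.11 ± 0.24 (SE, adjusted p = 0.0042). Gabra4 was lower as well, with a log2 difference of -0.87 (adjusted p = 0.031). None of these held in the DESeq2 test, whose adjusted p for the named genes was 0.117 or higher. The joint fit over 8 libraries called 27 genes in place of 31. Of 13 genes refitted there 8 kept their call, Dner and Rspo2 among them, while Itga8 (adjusted p = 0.068) and Gabra4 (0.068) did not. With nuclei bearing markers of other types left out, 15 genes were called, 14 of the 31 among them. There Dner (adjusted p = 0.089), Rspo2 (0.080), Epha10 (0.070), Zhx2 (0.14) and Gabra4 (0.052) lost their call, and St5 and Itga8 kept it.

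GR-KO and GR-Con were compared over both rearings. Kynu, the enzyme marker of L6b, was lower in GR-KO under both rearings. Its level was 40.6 and 33.5 CPM in NR GR-Con, 18.1 and 17.0 in NR GR-KO, 25.4 and 26.5 in DR GR-Con and 11.7 and 12.9 in DR GR-KO. Every GR-KO library was below every GR-Con library of the same rearing and, over both rearings, below all 4 GR-Con libraries. The log2 difference was -1.06 ± 0.14 (SE, adjusted p = 1.6e-09 by the edgeR likelihood ratio test and 0.013 by the quasi-likelihood test), -1.05 in NR and -1.06 in DR. It remained -1.13 with nuclei bearing other markers left out (adjusted p = 0.0009), while the calls within NR (log2 difference -1.36, adjusted p = 0.073) and within DR (-0.90, adjusted p = 0.19) were lost there. Kynu was also lower in DR than in NR, by 0.52 on the log2 scale (adjusted p = 0.042, and a log2 difference of -0.50 with adjusted p = 0.42 without those nuclei), with the NR GR-KO values below the DR GR-Con values. The second called gene, Gm42418, overlaps ribosomal RNA sequence and rose by 0.53 on the log2 scale. With 1 higher and 1 lower of 11283 genes, 0.0177% were called (0.00886% in each direction), and the groups did not overlap for 231 genes, 2.05%. DESeq2 called 2 genes and the quasi-likelihood test 1. The count was 43 without the NR GR-KO female, 11 without the DR GR-Con male, 7 without the NR GR-Con male, 5 without the NR GR-KO male, 3 without the DR GR-KO female and 1 without the other 3 libraries in turn. None of the list members tested was called in this comparison, glucocorticoid receptor targets included (7 tested, median 0.11 against 0.00 over all genes).

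**Figure D4:**
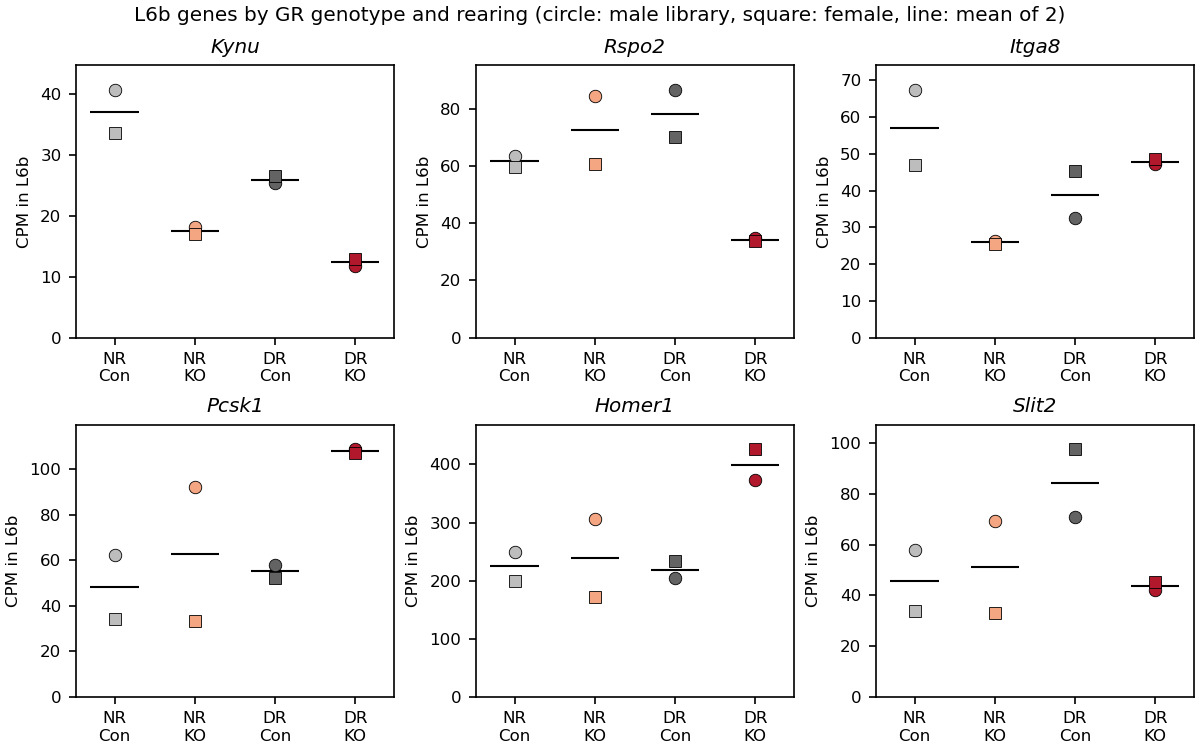
CPM in L6b of 6 genes in each library, grouped as in the plot of genes by rearing, with males as circles, females as squares and the mean of 2 libraries as a line. Kynu was lower in both GR-KO groups, and Rspo2, Slit2, Pcsk1 and Homer1 differed between genotypes in DR.

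In NR, 2 genes were higher (0.0179%) and 5 lower (0.0448%) in GR-KO, 0.0627% of 11162. Neurod6, a neuronal transcription factor, was at 23.0 and 22.1 CPM in GR-Con and 43.9 and 41.0 in GR-KO, a log2 difference of 0.93 ± 0.20 (SE, adjusted p = 0.019). Sidt1, a transmembrane transporter of RNA, was at 53.5 and 53.1 CPM in GR-Con and at 98.0 and 86.7 in GR-KO. Itga8 was at 67.4 and 46.9 in GR-Con and at 26.4 and 25.4 in GR-KO, a log2 difference of -1.12 ± 0.23 (SE, adjusted p = 0.010). Kynu, Strip2, Serpinb8 and Syndig1 were the other lower genes. The joint fit called Itga8 (adjusted p = 0.0080) but not Neurod6 (0.37) or Sidt1 (0.77). With nuclei bearing markers of other types left out, Neurod6 and Itga8 kept their call. Sidt1 did not (log2 difference 0.63, adjusted p = 0.54 by edgeR). The quasi-likelihood test called 0 genes, with 322 at an unadjusted p below 0.05, and DESeq2 called 0, with 70. Leaving out 1 library left a group with a single library of 1 sex, so counts of calls from those fits are not given.

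In DR, 19 genes were higher (0.162%) and 9 lower (0.0768%) in GR-KO, 0.239% of 11719. Activity-regulated genes stood among the higher ones. Pcsk1, a prohormone-processing protease, was at 57.7 and 52.3 CPM in GR-Con and at 109 and 107 in GR-KO, a log2 difference of 0.98 ± 0.17 (SE, adjusted p = 2.2e-05). Homer1, a postsynaptic scaffold, was at 204 and 234 CPM in GR-Con and at 372 and 426 in GR-KO, with a log2 difference of 0.88 ± 0.17 (SE, adjusted p = 0.00052). Nr4a3, an immediate early nuclear receptor, was at 16.1 and 19.9 CPM in GR-Con and at 42.0 and 49.7 in GR-KO, and Per1, a clock gene that the glucocorticoid receptor also regulates, at 13.4 and 15.4 in GR-Con and at 27.1 in each GR-KO library. Of 12 activity-regulated effectors tested 2 were higher and none lower, 10 had positive differences and the median was 0.42, where the median over all genes was 0.00 and 0.162% of genes were higher. Of 10 immediate early transcription factors tested, only Nr4a3 passed the test. Chrm2, the muscarinic M2 receptor, and Hrh1, the histamine H1 receptor, were higher, at 57.3 and 52.3 against 85.6 and 129 CPM, and at 79.9 and 66.2 against 130 and 126 CPM.

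Among the 9 genes lower in GR-KO in DR, Rspo2 was at 86.8 and 70.2 CPM in GR-Con and at 34.7 and 33.9 in GR-KO. Its log2 difference was -1.18 ± 0.21 (SE, adjusted p = 4.4e-05), and -1.34 to -1.01 with 1 library left out. Slit2 was at 71.1 and 97.7 in GR-Con and at 42.0 and 45.2 in GR-KO, a log2 difference of -0.94 (adjusted p = 0.0098). Mbp, an oligodendrocyte marker, was also higher in GR-KO, at 44.8 and 47.3 CPM against 18.7 and 24.3, and its log2 difference dropped from 1.11 to 0.59 (adjusted p = 0.95) when nuclei with markers of other types were left out. Without those nuclei 9 genes were called, 8 of the 28 among them. Pcsk1, Homer1, Nr4a3, Chrm2 and Rspo2 stayed called, and Per1 (adjusted p = 0.12), Hrh1 (0.065) and Slit2 (0.11) did not. With 1 library left out, the log2 difference of Hrh1 ran from 0.67 to 0.96. In the joint fit over 8 libraries 8 genes were called, Rspo2 among them (adjusted p = 0.00069), and Pcsk1 (0.70), Homer1 (0.28) and Nr4a3 (0.32) were not. The quasi-likelihood test called 0 genes, with 671 at an unadjusted p below 0.05, and DESeq2 called 6. Fits that left out 1 library had a group with a single library of 1 sex, so their counts of calls are not given.

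A test of whether the genotype difference changed with rearing called 4 genes, 0.0343% of 11659, 1 more positive (0.00858%) and 3 more negative (0.0257%) in DR. Itga8 was lower in GR-KO in NR and not in DR, where it was at 32.5 and 45.3 CPM in GR-Con and 47.3 and 48.5 in GR-KO, and the change of its log2 difference was 1.43 ± 0.32 (SE, adjusted p = 0.028). For Rspo2 the change was -1.46 ± 0.30 (SE, adjusted p = 0.014). Tshz2 and Pld1 were the others, both at low levels. The quasi-likelihood test and DESeq2 called 0, with 529 and 163 genes at an unadjusted p below 0.05. With nuclei bearing markers of other types left out, edgeR still called Itga8 (adjusted p = 0.018) but not Rspo2 (0.12). Leaving out 1 library left a group with a single library of 1 sex, so counts of calls from those fits are not given.

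The darkness effect in L6b was set against that in 3 other deep types, L6CT, L5NP and L6IT, with the 2 types of a library paired. The difference of effects was called for 218 of 16158 genes for L6CT (1.35%, with 0.402% more positive and 0.947% more negative in L6b), 36 of 12831 for L5NP (0.281%, with 0.117% and 0.164%) and 78 of 15663 for L6IT (0.498%, with 0.268% and 0.23%). The quasi-likelihood test called 78, 3 and 9. For L6CT the count ran from 114 to 269 with 1 library left out. It was 114 without the DR GR-KO male, 120 without the NR GR-Con female and 121 without the NR GR-Con male. The darkness comparison within the other types called 12.7% of genes in L6CT, 2.44% in L5NP and 6.8% in L6IT. In L6CT 12197 nuclei gave deeper sums than the 1159 of L6b.

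Hcrtr2 was higher in DR in L6b and lower in DR in L6CT. In L6CT it was at 38.3 to 78.0 CPM in NR and at 15.8 to 36.4 in DR, a log2 difference of -0.89 ± 0.31 (SE, adjusted p = 0.039) against 0.72 in L6b, and the difference of the effects was 1.61 ± 0.27 (SE, adjusted p = 2.1e-06, 0.010 by the quasi-likelihood test). Ltbp1, Tox and Rgs20 moved in the same sense, lower in DR in L6CT, and in L6b their own differences of 0.27, 0.41 and 0.44 did not pass the test. The quasi-likelihood test called Ltbp1 (adjusted p = 0.023) and Rgs20 (0.032) but not Tox (0.18), which was called in 5 of 8 fits that left out 1 library. Inpp4b, a phosphatase of phosphoinositide signalling, was at 1721 to 2120 CPM in NR L6b and at 1991 to 2209 in DR L6b, while in L6CT it went from 12.6 to 25.0 in NR to 59.7 to 149 in DR. Its difference of effects was -2.14 ± 0.22 (SE, adjusted p = 2.3e-18, 0.0020 by the quasi-likelihood test). Sv2c, a synaptic vesicle protein, and Sema5b, a semaphorin, had differences of -1.63 and -1.73, and Gm41414 one of -1.43, which the quasi-likelihood test did not call (adjusted p = 0.19) and which held in 5 of 8 fits that left out 1 library. These 4 genes are all expressed more in L6b than in L6CT. Of 7 L6b markers tested in L6CT, none was called higher or lower in DR, against 12.7% of all genes there, but 6 had positive differences and the median was 0.61 on the log2 scale. In L6CT Cplx3 was at 0.377 to 1.01 CPM in NR and at 0.124 to 1.43 in DR, and Ccn2 at 1.17 to 2.54 and at 0.602 to 1.54. The part of L6b RNA in the L6CT values was not tested.

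**Figure D5:**
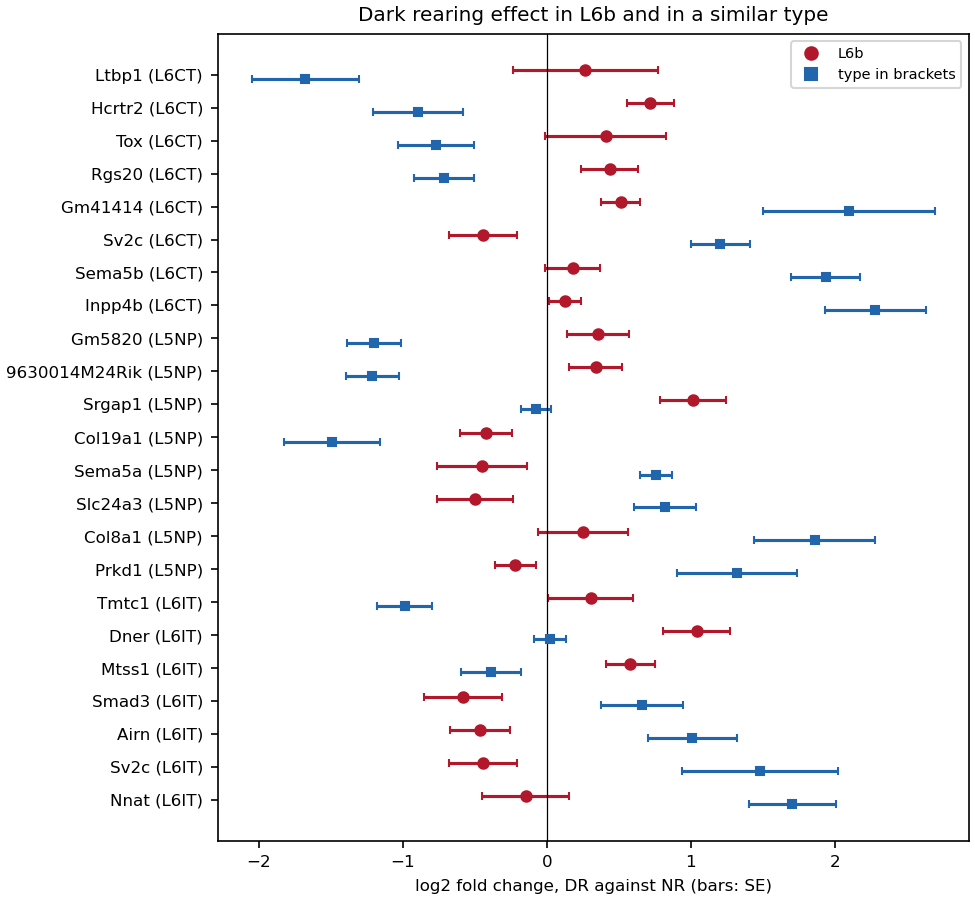
Log2 fold change of DR against NR with its SE for genes whose darkness effect differed between L6b (red circles) and the type in brackets (blue squares). Inpp4b had a fold change of 0.13 in L6b and 2.28 in L6CT, and Hcrtr2 had 0.72 and -0.89.

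Against L5NP, Gm5820 and 9630014M24Rik were lower in DR in L5NP, and their L6b differences of 0.35 and 0.34 did not pass the test. Srgap1, a GTPase-activating protein of Slit-Robo signalling, was higher in DR in L6b, at 7.45 to 12.7 CPM in NR and 14.6 to 22.8 in DR, a log2 difference of 1.01 (adjusted p = 0.0079) against -0.07 in L5NP. The quasi-likelihood test did not call this difference (adjusted p = 0.067). For Prkd1, Col8a1 and Slc24a3 the differences were -1.73, -1.60 and -1.29. The log2 difference was 1.32, 1.86 and 0.82 in L5NP, where Prkd1 was not called (adjusted p = 0.057 by edgeR). In L6b it was -0.22, 0.25 and -0.50, none of them called. All 3 differences of effects missed the threshold in the quasi-likelihood test (adjusted p = 0.22, 0.086 and 0.16). Against L6IT, Dner showed a log2 difference of 1.04 in L6b and 0.02 in L6IT, and the difference of effects was 1.06 ± 0.26 (SE, adjusted p = 0.014). The quasi-likelihood test did not call it (adjusted p = 0.22). Nnat, a small membrane protein of development, was at 5.65 to 14.9 CPM in NR L6b and at 6.10 to 10.9 in DR, and in L6IT at 16.0 to 40.7 in NR and at 30.2 to 142 in DR.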

How the data were processed

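Nuclei of mouse V1 at postnatal day 21 were profiled with 10x 3′ single-nucleus RNA-seq in 8 libraries from separate animals, so p-values measure the spread between these libraries. Per the labels and the methods, the authors processed reads with Cell Ranger 8.0.1 against an mm10 annotation with the viral transcript added, and filtered and annotated nuclei with Seurat 5.3.0 after doublet removal with DoubletFinder. No further doublet filter was applied. The deposited values were raw UMI counts per gene and nucleus, with a metadata table of library, condition, genotype and cell type, in which the authors also gave mitochondrial reads as a percent. Groups and cell types were taken from that table.

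UMIs of L6b nuclei were summed per library. Genes were filtered with filterByExpr, scaled by TMM and tested with the likelihood ratio test of edgeR 4.0.16 in R 4.3.3, which the study's methods use, with Benjamini-Hochberg adjustment over all genes tested and a threshold of 0.05. The comparisons were DR against NR and GR-KO against GR-Con, pooled and within groups, their interaction, and the difference of the DR effect between L6b and another type with library as a block. The SE was derived from the likelihood ratio. CPM used the L6b total of a library. The edgeR tests and DESeq2 were also run on simulated counts, and no result here draws on that outcome. Alternatives were the quasi-likelihood test, DESeq2 1.42.0, other factors, no filter, sex as a term, nuclei with at least 5000 UMIs, removal of nuclei with at least 3 UMIs of other types' markers, 1 joint fit, and leaving out each library.

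The members and gene lists were chosen with earlier results of these data known. Named genes were list members and the 20 genes with the largest ratio of mean CPM in L6b to that in any other type at 20 CPM or more. For each comparison, up to 8 called genes per direction with the largest change (4 between types) and a mean log2 CPM of at least 5 were added. Their groups did not overlap, a rule not applied to the interaction or between types. Vector features and sex-linked genes were left out, which touched 1 called gene, in DR against NR in GR-KO. Adarb2, Serpinb8, Syndig1, Gm42418 and Pld1 were named after their values were seen. A result on 1 other gene is not reported here.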

Additional observations from a re-analysis of the deposited data

Results flagged for a closer look

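Among 58 sets of 4 libraries, 4 had a library far from the other 3, where chance gives about 1 in 20. These were Cntnap5a in DR, with 1 library at 38.4 CPM, Sh3gl3 in DR at 79.5 CPM, Rad51ap2 in DR at 26.7 CPM and Osbpl3 in NR at 611 CPM, the last in the NR GR-KO female library.

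The likelihood ratio test of the edgeR interaction term called a change of the genotype difference with rearing for Itga8 (1.43 on the log2 scale) and Rspo2 (-1.46). Neither was called by the quasi-likelihood test (adjusted p = 0.99 for both) or by DESeq2 (0.40 and 0.11). With nuclei bearing markers of other types left out, Rspo2 lost its edgeR call (adjusted p = 0.12).

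The DR effect in L6b differed from that in L6CT, by a test of the difference, for Ltbp1 (1.89 on the log2 scale), Hcrtr2 (1.61), Tox (1.44), Rgs20 (1.18), Inpp4b (-2.14), Sema5b (-1.73), Sv2c (-1.63) and Gm41414 (-1.43). It differed from that in L5NP for Gm5820 (1.58), 9630014M24Rik (1.57), Srgap1 (1.01), Col19a1 (1.01), Prkd1 (-1.73), Col8a1 (-1.60), Slc24a3 (-1.29) and Sema5a (-1.11). It differed from that in L6IT for Gm32647 (1.90), Tmtc1 (1.22), Dner (1.06), Mtss1 (1.03), Nnat (-1.69), Sv2c (-1.59), Airn (-1.31) and Smad3 (-1.22). Gm32647 was too low in L6b to be tested there alone (mean 2.25 CPM), and its difference was called in 3 of 8 fits that left out 1 library, with a range of 1.06 to 3.29. By the quasi-likelihood test, the calls were 6 of the 8 differences from L6CT, 2 of 8 from L5NP (Gm5820 and 9630014M24Rik) and 1 of 8 from L6IT (Nnat). Col19a1 (adjusted p = 0.52) and Sema5a (0.26) were among those it did not call, and each was called in 4 of 8 fits that left out 1 library.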

How the results depend on the processing

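Counts of called genes depended on the test, and the cause was not tested. In the order DR against NR pooled, in GR-Con and in GR-KO, GR-KO against GR-Con in NR, in DR and pooled, and the interaction, the counts were 53, 44, 31, 7, 28, 2 and 4. The quasi-likelihood test gave 0, 2, 0, 0, 0, 1 and 0, and DESeq2 gave 29, 28, 1, 0, 6, 2 and 0. A joint fit over 8 libraries gave 7 for DR against NR in GR-Con, 27 in GR-KO and, between genotypes, 4 in NR and 8 in DR. Without the filter, GR-KO against GR-Con in NR gave 2 and the interaction 7. With sex as a term, GR-KO against GR-Con gave 15 in NR, 61 in DR and 4 pooled, and the interaction 7. Without nuclei bearing other markers, DR against NR in GR-KO gave 15, and GR-KO against GR-Con 9 in DR and 4 pooled. For the difference between types, the quasi-likelihood test gave 78 (L6CT), 3 (L5NP) and 9 (L6IT), and no filter gave 90 (L5NP) and 179 (L6IT).

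Leaving out 1 library gave 14 to 193 for DR against NR pooled, 25 to 141 in GR-Con and 2 to 473 in GR-KO. Between genotypes it gave 5 to 147 in NR, 8 to 110 in DR, 1 to 43 pooled and 1 to 51 for the interaction. Between types it gave 114 to 269 (L6CT), 18 to 111 (L5NP) and 31 to 161 (L6IT). The L5NP count was 111 without the NR GR-KO male, 22 without the NR GR-KO female, 21 and 19 without the NR GR-Con male and female and 18 without the DR GR-KO male. The L6IT count was 161 without the NR GR-KO male, 141 without the DR GR-Con male, 42 without the NR GR-Con female and 31 without the DR GR-KO male.

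The share difference of DR against NR ran from -0.165 to 0.448 percentage points and that of GR-KO against GR-Con from -0.412 to 0.201. Of 1242 refits of single named genes, 836 kept direction and call, 406 kept direction and lost the call, and none reversed. These genes were refitted because the main fit called them, many with groups that did not overlap. Some settings also changed little, such as the cut at 5000 UMIs, which kept 1156 of 1159 nuclei. A reversal was therefore unlikely from the start, and the tally is no test of direction. No paired analysis was possible by replicate number because the library names carry none, and sex, with 1 male and 1 female library per group, was fitted as a term instead. L6b nuclei numbered 58 to 237 per library.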
